A study of Mus musculus with 6 samples.

Results

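Costimulatory receptors of the CD28 and TNF receptor families were examined in regulatory T cells (Treg), the CD4 T cells that restrain immune responses. The members were 9 genes of the deposited expression table, found by matching its Ensembl identifiers to symbols, out of 36811 genes in all. They are Cd28 and Icos of the CD28 family, and Tnfrsf18, Tnfrsf4, Tnfrsf9, Cd27, Tnfrsf1b, Tnfrsf1a and Tnfrsf25 of the TNF receptor family. Each of the 9 symbols matched a single row. RNA was sequenced from spleen Treg sorted by an EGFP reporter at Foxp3, from C57BL/6 mice aged 18 to 21 weeks. The 3 libraries labelled cKO carried floxed Bach2 alleles (Bach2fl/fl) with Foxp3EGFP-Cre-ERT2, and the 3 labelled WT carried unaltered Bach2 (Bach2+/+) with the same Foxp3EGFP-Cre-ERT2 allele. Cre-ERT2 is a recombinase that acts only after a tamoxifen-like drug is given, and it was present in Foxp3-expressing cells of both groups. No source used here gives the drug treatment or the deleted part of Bach2. Whether libraries within a group are from different animals is unstated in the labels. A p-value here therefore covers no more than the spread among these libraries, which may be technical.

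T cells need a second signal beside that of the antigen receptor, and these receptors provide it. CD28 and ICOS bind ligands of the B7 family and recruit PI3K through a tyrosine motif in their cytoplasmic tails. TNF receptor family members bind trimeric ligands and signal through TRAF adaptors to NF-kB, or through a death domain in TNFR1 and DR3. Treg carry many of them at high levels, and several are used as markers of activated Treg. Bach2, the gene targeted in the study, encodes a transcriptional repressor that binds AP-1-like DNA elements.

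The stretches of coding sequence that hold the PI3K-binding tyrosine motif set the CD28 family pair apart. Below, the codons of that motif are in capitals within 60 bases of the longest open reading frame (GENCODE M21). They are codons 189 to 192 of Cd28 and 181 to 184 of Icos. The motif of CD28 also binds the adaptor GRB2 and that of ICOS is known as a stronger binder of PI3K.
Cd28: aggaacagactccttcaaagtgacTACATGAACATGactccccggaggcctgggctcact
Icos: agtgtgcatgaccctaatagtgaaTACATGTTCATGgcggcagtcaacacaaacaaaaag

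Promoter windows, 250 bases before to 50 bases after a start site, were found in the RefSeq table (GRCm38.p6) for the 7 TNF receptor members, with 9 windows in all. Cd28 and Icos had no entry. The windows of Tnfrsf1b and Tnfrsf9 are shown because these 2 genes, with Icos, were the members whose groups did not overlap. Tnfrsf9 has a pair of annotated start sites. Capitals mark TGANTCA (the core that AP-1 and Bach factors bind), the kB consensus of NF-kB and TTCNNNGAA (the element of STAT factors), each searched on both strands. No capitals appear in the first Tnfrsf9 window, where none of these was found.
Tnfrsf1b, chr4:145246821-145247120, minus strand: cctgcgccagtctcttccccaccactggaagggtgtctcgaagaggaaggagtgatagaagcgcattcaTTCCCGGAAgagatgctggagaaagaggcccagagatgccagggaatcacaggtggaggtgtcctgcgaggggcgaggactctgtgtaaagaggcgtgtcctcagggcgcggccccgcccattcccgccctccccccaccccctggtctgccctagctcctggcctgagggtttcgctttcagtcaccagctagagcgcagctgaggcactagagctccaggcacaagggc
Tnfrsf9, first start site, chr4:150919905-150920204, plus strand: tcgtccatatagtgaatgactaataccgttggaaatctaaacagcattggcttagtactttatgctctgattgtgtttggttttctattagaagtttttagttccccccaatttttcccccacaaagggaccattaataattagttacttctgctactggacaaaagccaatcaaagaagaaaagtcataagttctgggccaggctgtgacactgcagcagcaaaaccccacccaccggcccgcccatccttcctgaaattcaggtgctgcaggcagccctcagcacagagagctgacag
Tnfrsf9, second start site, chr4:150927749-150928048, plus strand: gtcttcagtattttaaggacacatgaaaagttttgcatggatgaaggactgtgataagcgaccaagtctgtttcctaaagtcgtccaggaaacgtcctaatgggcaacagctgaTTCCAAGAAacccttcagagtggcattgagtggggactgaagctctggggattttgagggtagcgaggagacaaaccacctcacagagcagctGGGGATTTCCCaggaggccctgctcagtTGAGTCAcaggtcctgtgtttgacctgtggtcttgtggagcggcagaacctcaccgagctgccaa

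The second Tnfrsf9 window held all 3 marked motifs. TGANTCA began 15 bases before the start site and was found in 1 of the 9 windows, against 7.81% of 32851 windows in the table. The kB consensus lay there as overlapping matches that began 43 and 42 bases before the start site, and was found in 1 of 9 windows against 4.51% of all. TTCNNNGAA was found in 5 of 9 windows against 8.30% of all, in the genes Tnfrsf1b, Tnfrsf9, Tnfrsf18, Tnfrsf1a and Tnfrsf25. The longer Bach and Maf element, TGACTCA followed at once by GCA, which contains TGANTCA, was in 0 of 9 windows and 0.155% of all. The NFAT core TGGAAA was in 2 of 9 windows against 21.4% of all. The GC box GGGCGG was in 3 windows against 35.7% of all, the RUNX core TGTGGT in 2 against 16.8%, and the ETS element ACCGGAAG in 1 against 2.3%. The remaining motifs of the 11 searched were in 0 of 9 windows, namely TGACGTCA (1.79% of all), TGTTTAC (3.65%) and TATAAA (13.6%). A match of letters does not show binding, and the motifs were chosen with results of these data known.

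All values are FPKM, fragments scaled to transcript length and to the fragments of the library, so levels can be set side by side between genes. Steps between the lowest values put the scale of a library at about 3050000 to 4970000 fragments, which need not be the number sequenced. By that scale and the shortest coding transcript, no fewer than 224 fragments lay behind any member's value except those of Tnfrsf1a, with 31 to 51. The shortest coding transcript of Tnfrsf1a has 390 bases and the longest 2156, so its number may be higher. Values of a group are listed in the order of replicates 1, 2 and 3. Bach2 itself did not stand lower in cKO, at 7.88, 9.19 and 6.44 FPKM in the cKO libraries against 3.29, 8.25 and 4.80 FPKM in the WT libraries. The values cover the whole gene, so they leave the labels unchecked, and every direction given here rests on the labels. Foxp3, which defines Treg, lay between 5.16 and 9.44 FPKM, Cd4 between 318 and 474 FPKM, and of the CD8 chains Cd8a was at or below 0.531 FPKM while Cd8b1 stood at 18.8 to 22.4 FPKM. Among the 11979 genes whose mean reached 1 FPKM, 3 passed (limma on log2(FPKM + 1), Benjamini-Hochberg adjusted p of 0.05), or 0.0250%. Of 10 Treg identity genes, Foxp3 among them, 7 had a log2 difference above 0 and none passed. Capg was higher in every cKO library, at 962 ± 96.7 against 770 ± 83.0 FPKM in WT (SD, n = 3 each). Lrrc32 was lower in every cKO library, at 59.7 ± 14.7 against 77.0 ± 4.71 FPKM. Of all genes tested, 6.96% were apart and higher in cKO and 3.75% apart and lower.

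The TNF receptors GITR and OX40 stood far above the other costimulatory receptors. Averaged over the 6 libraries, Tnfrsf18 (GITR) stood at 2129 FPKM and ranked 67 among the genes tested, and Tnfrsf4 (OX40) stood at 1186 FPKM and ranked 136. Together they made up 71.0% to 78.1% of the summed FPKM of the 9 receptors in a library. Cd27 followed at 307 FPKM, Tnfrsf9 at 275, Tnfrsf1b at 212, Icos at 119, Tnfrsf25 at 84.8, Cd28 at 63.7 and Tnfrsf1a at 24.6 FPKM. The steps in this order without overlap over the libraries were from Tnfrsf18 to Tnfrsf4, from Tnfrsf4 to Cd27 and from Cd28 to Tnfrsf1a. The ranges of the other neighbours overlapped. Within a library, Tnfrsf1b still exceeded Icos and Tnfrsf25 still exceeded Cd28 in 6 of 6 libraries. Cd27 exceeded Tnfrsf9, Tnfrsf9 exceeded Tnfrsf1b and Icos exceeded Tnfrsf25 in 5 of 6.

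**Figure D1:**
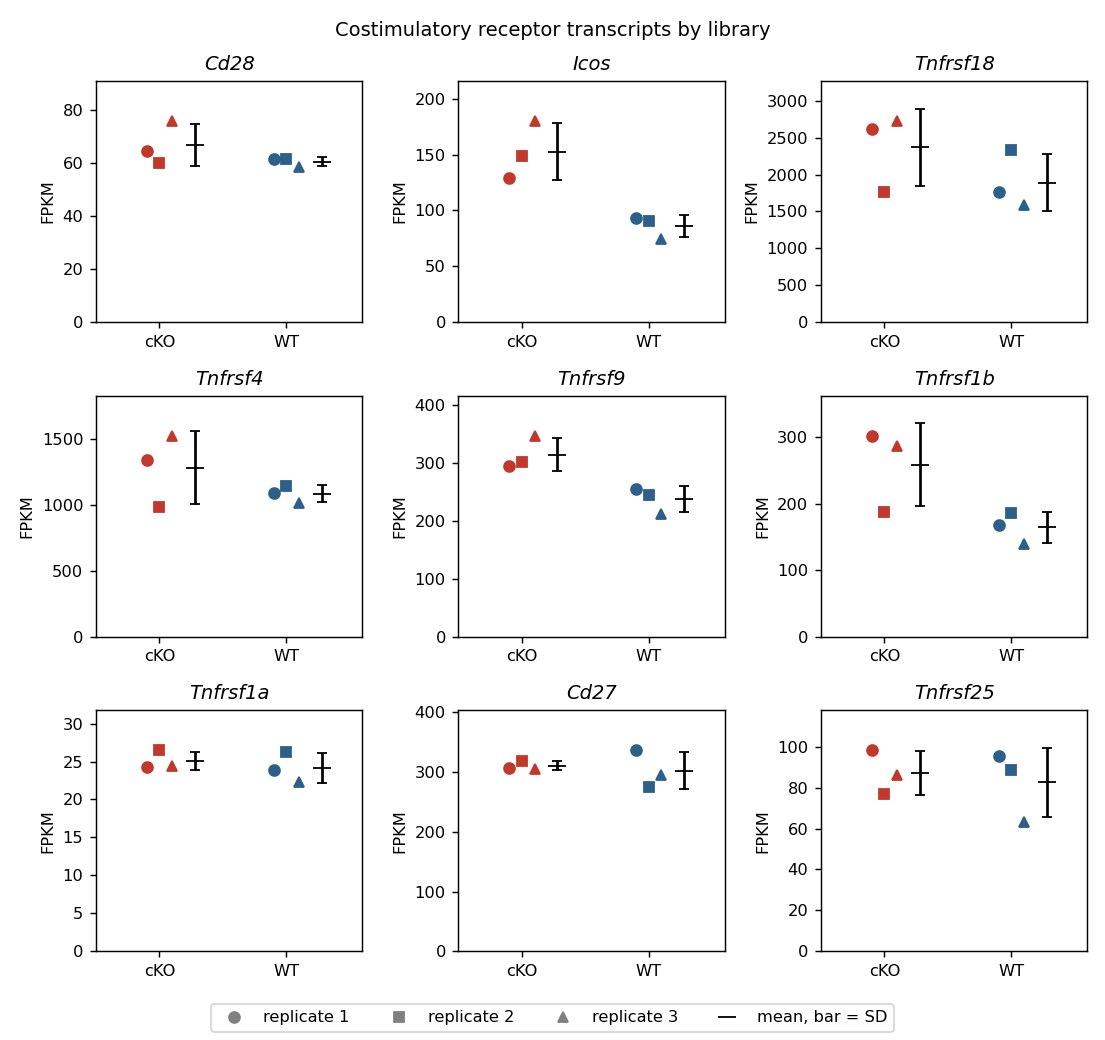
FPKM of the 9 costimulatory receptor genes in each library, 1 panel a gene, with linear axes from 0. Symbols mark the 3 libraries labelled cKO and the 3 labelled WT, and the bar beside them is the mean with its SD. Icos, Tnfrsf9 and Tnfrsf1b show no overlap between the groups, with Icos at 129 to 179.9 FPKM in cKO and 74.4 to 93.2 FPKM in WT.

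Icos had the largest log2 difference of the members with all 6 libraries, and Tnfrsf1b the largest without cKO 2, at 0.85 against 0.82 for Icos. It encodes an inducible receptor for ICOS ligand that is abundant on activated Treg. Icos (ENSMUSG00000026009) stood at 129, 149 and 179.9 FPKM in the cKO libraries and at 93.2, 90.7 and 74.4 FPKM in the WT libraries. Every library labelled cKO was above every library labelled WT. The ratio of means was 1.77. On the log2(FPKM + 1) scale the difference was 0.81 (SE 0.170, 95% interval 0.41 to 1.22). It did not pass over all genes tested (limma, Benjamini-Hochberg adjusted p = 0.748), although it ranked 36 of 11979 by p. The difference lay between 0.65 and 0.97 in 18 alternatives, of which the filters, variance trends and replicate block cannot change it. The groups stayed apart under the 4 other scalings, the alternatives that could have made them overlap.

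Cd28, the family's constitutive receptor for CD80 and CD86, differed little between the groups. Cd28 (ENSMUSG00000026012) stood at 64.7, 60.1 and 75.9 FPKM in the cKO libraries and at 61.5, 61.4 and 58.7 FPKM in the WT libraries. The groups overlapped because cKO 2 lay below WT 1 and WT 2. The log2 difference was 0.14, with a 95% interval from -0.18 to 0.45 (limma, adjusted p = 0.933). That interval does not exclude a change in either direction, and it overlaps the interval of Icos. Ctla4, which encodes the inhibitory receptor for the same ligands, lies between Cd28 and Icos on chromosome 1. It stood at 135 ± 35.7 FPKM in cKO and 108 ± 18.3 FPKM in WT (SD, n = 3 each), with overlap and a log2 difference of 0.30 (limma, adjusted p = 0.925).

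Among the TNF receptors that bind TRAF adaptors, Tnfrsf9 and Tnfrsf1b had groups that did not overlap. Tnfrsf9 (ENSMUSG00000028965) encodes 4-1BB, which is induced by antigen receptor signals. It stood at 294, 302 and 346 FPKM in the cKO libraries and at 255, 245 and 211 FPKM in the WT libraries. Every cKO library was above every WT library, and the nearest pair were cKO 1 and WT 1. The log2 difference was 0.40, SE 0.135, with an interval from 0.08 to 0.73 (limma, adjusted p = 0.915).

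Tnfrsf1b (ENSMUSG00000028599) encodes TNFR2, the TNF receptor through which TNF expands Treg. It stood at 302, 188 and 287 FPKM in the cKO libraries and at 168, 186 and 139.6 FPKM in the WT libraries. The groups were apart only narrowly, since cKO 2 at 187.9 FPKM was just above WT 2 at 185.9 FPKM, while cKO 1 and cKO 3 lay far above every WT library. The log2 difference was 0.63, SE 0.218, with an interval from 0.11 to 1.15 (limma, adjusted p = 0.915). It lay between 0.50, without cKO 1, and 0.85, without cKO 2, when 1 library was left out.

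Tnfrsf18 and Tnfrsf4, which lie next to each other on chromosome 4, overlapped between the groups. Tnfrsf18 (ENSMUSG00000041954) stood at 2616, 1763 and 2722 FPKM in the cKO libraries and at 1768, 2326 and 1581 FPKM in the WT libraries. Its log2 difference was 0.32, with an interval from -0.25 to 0.88 (limma, adjusted p = 0.925). Tnfrsf4 (ENSMUSG00000029075) stood at 1343, 988 and 1527 FPKM in the cKO libraries and at 1093, 1148 and 1018 FPKM in the WT libraries. Its log2 difference was 0.22, with an interval from -0.23 to 0.68 (limma, adjusted p = 0.925). In both genes cKO 2 was the lowest cKO library and lay below at least 1 WT library. Leaving out 1 library at a time moved the Tnfrsf18 difference between 0.20, without WT 3 or cKO 3, and 0.52, without cKO 2. It moved the Tnfrsf4 difference between 0.086, without cKO 3, and 0.40, without cKO 2. Exons of Tnfrsf18 overlap the antisense gene Gm16008, listed at 205 to 354 FPKM, and the strand setting of the counts is not given, so reads of the pair may be shared.

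Cd27, which binds CD70 and is kept by resting T cells, stood at 307, 319 and 306 FPKM in the cKO libraries and at 336, 275 and 296 FPKM in the WT libraries. The cKO values lay inside the WT range. Cd27 (ENSMUSG00000030336) had a log2 difference of 0.04, with an interval from -0.26 to 0.34 (limma, adjusted p = 0.981).

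The receptors with a death domain also overlapped. Tnfrsf1a (ENSMUSG00000030341) encodes TNFR1, the broadly expressed TNF receptor. It stood at 24.3, 26.5 and 24.4 FPKM in the cKO libraries and at 23.9, 26.2 and 22.3 FPKM in the WT libraries, a log2 difference of 0.05 with an interval from -0.27 to 0.37 (limma, adjusted p = 0.978). Tnfrsf25 (ENSMUSG00000024793) encodes DR3, the receptor of TL1A, whose triggering expands Treg. It stood at 98.2, 77.0 and 86.0 FPKM in the cKO libraries and at 95.6, 88.8 and 63.2 FPKM in the WT libraries. Its log2 difference was 0.09, with an interval from -0.37 to 0.55 (limma, adjusted p = 0.977). WT 3 alone lay outside the cKO range, and the difference was -0.087 without it.

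**Figure D2:**
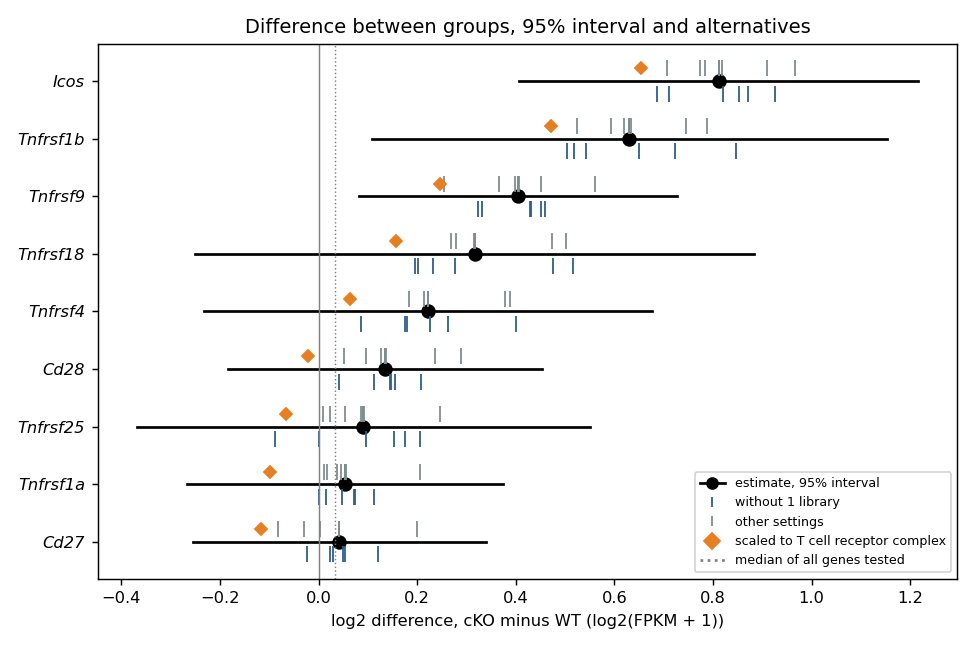
Log2 difference of each receptor gene, cKO minus WT on the log2(FPKM + 1) scale, with its 95% interval as a line. Blue ticks leave out 1 library, grey ticks are other settings, diamonds are libraries scaled to the T cell receptor complex, and the dotted line is the median of all genes tested. The intervals of Icos, Tnfrsf1b and Tnfrsf9 lie above 0, and those of the other 6 span it.

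None of the 9 receptors passed over all genes (limma, Benjamini-Hochberg), against 0.0250% of all genes tested. At an unadjusted p under 0.05, 3 of 9 differed, against 5.37% of all genes tested, and all 3 were higher in cKO, against 3.59%. The groups were apart in 3 of 9, all higher in the libraries labelled cKO, against 6.96% of genes apart in that direction and 3.75% in the other, 10.7% in all. The median log2 difference of the 9 was 0.22, and that of all genes tested was 0.03. The log2 difference was above 0 in 9 of 9 members, against 55.0% of all genes, but in 5 of 9 when libraries were scaled to the T cell receptor complex, where Cd28, Tnfrsf1a, Cd27 and Tnfrsf25 were below 0, and in 8 of 9 after quantile normalization, where Cd27 was below 0. The T cell receptor scaling moved the median of all genes to -0.11, and equal FPKM sums moved it to 0.18. Relative to those medians, Icos differed by 0.77 and 0.79 and Tnfrsf1b by 0.58 and 0.61. Each of these scalings divides all values of a library by the same factor and shifts all genes nearly alike. Such distances could therefore hardly change, and they are no test of the scaling. These are bulk samples, so fewer cells of a type and less RNA per cell cannot be told apart.

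The libraries of a group did not move together in every receptor. WT 3 was the lowest of the 6 libraries in 7 of 9 members, and cKO 3 was the highest in 5 of 9. The same counts were not taken over all genes, so whether these libraries as a whole moved likewise was not tested. The coefficient of variation within the cKO group ran from 2.34% in Cd27 to 24.0% in Tnfrsf1b, and within the WT group from 2.68% in Cd28 to 20.6% in Tnfrsf25. Its median over the 5019 genes whose mean reached 20 FPKM was 16.6% in cKO and 14.0% in WT.

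Ratios between a pair of receptors in the same library hardly depend on how libraries are scaled. The log2 ratio of Icos to Cd28 was 0.98, 1.30 and 1.23 in the cKO libraries, against 0.59, 0.56 and 0.34 in the WT libraries, so Icos stood higher against Cd28 in each cKO library. The difference was 0.68. The log2 ratio of Tnfrsf9 to Cd27 averaged 0.01 in cKO and -0.35 in WT, a difference of 0.36 with no overlap. The log2 ratio of Tnfrsf1b to Tnfrsf1a averaged 3.29 in cKO and 2.71 in WT, a difference of 0.58, but cKO 2 at 2.782 was next to WT 2 at 2.779. The ratio of the neighbours Tnfrsf4 to Tnfrsf18 overlapped, with a difference of -0.095. The first 3 ratios each had p = 0.1 (two-sided exact permutation test), the smallest that 3 libraries against 3 allow, and the last had p = 0.5 by the same exact test. Adjusted over the 4 ratios, the exact permutation values were 0.133 for the first 3 and 0.5 for the last. The pairs were chosen with results of these data known. Each difference is also that between the log2 differences of its genes given above, so the ratios are no separate support.

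**Figure D3:**
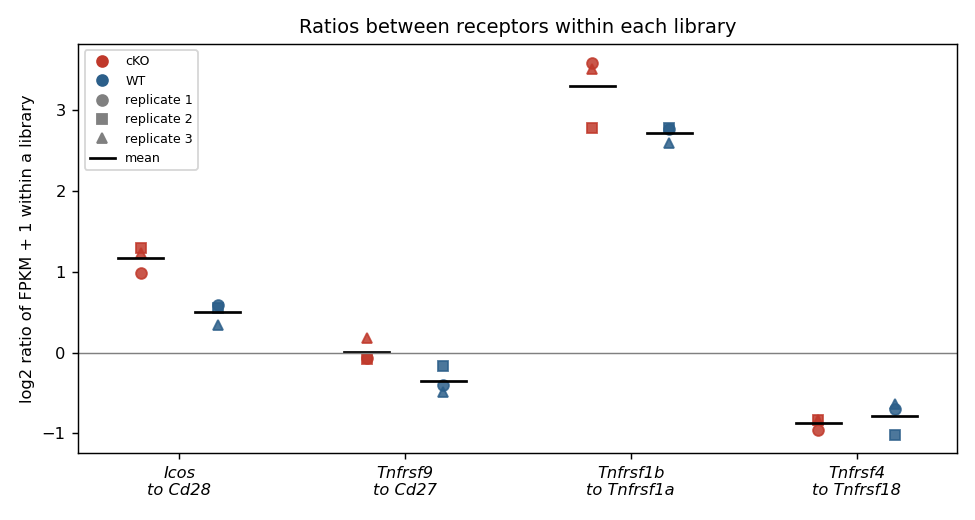
Log2 ratio of FPKM + 1 between pairs of receptor genes within each library, with cKO in red and WT in blue, a symbol for each replicate and a line at each group's mean. The Icos to Cd28 ratio lies between 0.98 and 1.30 in cKO and between 0.34 and 0.59 in WT, while the Tnfrsf4 to Tnfrsf18 ratios overlap.

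Genes of B7 and TNF family ligands were mostly low in the sorted cells, apart from Cd86 and the lymphotoxin genes Lta and Ltb. Of 11 ligand genes, 7 had a mean of at least 1 FPKM and were tested. Tnfsf18, the GITR ligand, was listed at 0 in each library, and Cd80, Tnfsf4 and Tnfsf15 were also under the minimum. None passed (limma over all genes), and 1 of 7 had an unadjusted p under 0.05, against 5.37% of all genes tested. Groups were apart in 2 of 7, both higher in cKO, against 6.96% of all genes. Among the untested ligands, Cd80, which binds CD28, was apart in the other direction at low values. Its highest cKO value was 0.757 FPKM, just under its lowest WT value of 0.811 FPKM. Tnfsf4 and Tnfsf15 overlapped. Lta, which encodes lymphotoxin alpha, a ligand of TNFR1 and TNFR2, stood at 93.6, 88.7 and 95.3 FPKM in the cKO libraries and at 60.9, 67.7 and 70.8 FPKM in the WT libraries. The groups were apart, with a log2 difference of 0.47 (limma, adjusted p = 0.846). Ltb, the partner chain of lymphotoxin, was also apart, at 2273 ± 191 FPKM in cKO and 1889 ± 128 FPKM in WT (SD, n = 3 each), and its log2 difference was 0.27. Tnf itself overlapped, with 6.48 to 10.3 FPKM in cKO and 4.93 to 7.10 FPKM in WT.

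Other members of both receptor families gave few differences. Of 21 other TNF receptor genes, 10 were tested, 7 of them had a log2 difference above 0, and none passed (limma over all genes) or had an unadjusted p under 0.05. Of the 10 tested, only Tnfrsf26 had groups apart, against 10.7% of all genes tested. Its values were 49.9 ± 1.04 in cKO against 43.4 ± 4.14 FPKM in WT (SD, n = 3 each). Fas, the death receptor, stood at 68.4 ± 8.42 against 61.4 ± 2.65 FPKM. Tnfrsf8, the gene of CD30 that lies beside Tnfrsf1b, stood at 12.6 ± 5.10 against 9.65 ± 0.837 FPKM. Of 3 other CD28 family genes, only Btla was apart, in the other direction, against 3.75% of all genes tested. It encodes an inhibitory receptor that binds a TNF receptor member. It stood at 23.3, 14.4 and 23.7 FPKM in the cKO libraries and at 26.6, 25.3 and 25.3 FPKM in the WT libraries, a log2 difference of -0.35 (limma, adjusted p = 0.925).

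Downstream genes were tested in full. Of 16 TRAF and death domain adaptor genes, 10 had a value above 0, none passed or had an unadjusted p under 0.05, and the median log2 difference was 0.10. Groups were apart in 2 of 16, both higher in cKO, against 6.96% of all genes tested. Traf2, the main adaptor of TNFR2, OX40 and 4-1BB, was apart at 76.4 ± 7.04 against 62.9 ± 8.39 FPKM (SD, n = 3 each). Traip, which encodes a TRAF-interacting ubiquitin ligase, was apart at 2.30 ± 0.309 against 1.67 ± 0.0707 FPKM. Traf1, itself an NF-kB target, overlapped with a log2 difference of -0.024. Map3k14, the kinase of the noncanonical NF-kB route, had a log2 difference of -0.46 with overlap.

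Of 17 NF-kB genes, 13 had a value above 0, with a median of 0.07. None passed over all genes (limma), and 2 had an unadjusted p under 0.05, against 5.37% of all genes tested. Groups were apart in 3, all higher in cKO, against 6.96% of all genes. Nfkb1, the gene of the p105 and p50 subunit, stood at 63.6, 57.6 and 49.1 FPKM in the cKO libraries and at 48.7, 36.9 and 36.1 FPKM in the WT libraries, a log2 difference of 0.48 (limma, adjusted p = 0.915). The groups were apart narrowly, since cKO 3 was just above WT 1. Nfkb2, the gene of the noncanonical subunit p100, was apart at 66.3 ± 3.96 against 55.2 ± 2.91 FPKM (SD, n = 3 each). Ikbkg, the regulatory subunit of the IKK complex, was apart at 42.9 ± 5.57 against 32.5 ± 3.11 FPKM, and Rela overlapped at a log2 difference of 0.03.

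Genes that carry the CD28 and ICOS signal were split in direction. Of 19, 9 had a value above 0, and the median was -0.0040. None passed (limma over all genes), and 1 had an unadjusted p under 0.05, against 5.37% of all genes tested. That was Themis, a regulator of T cell receptor signalling, at 24.0, 20.2 and 24.1 FPKM in the cKO libraries and at 10.8, 16.3 and 15.9 FPKM in the WT libraries. Its groups alone in the list were apart, against 6.96% of all genes apart and higher in cKO. Its log2 difference was 0.65 (limma, adjusted p = 0.874). Pik3r1, the regulatory PI3K subunit that binds the tyrosine motifs shown above, had a log2 difference of 0.44 with overlap, and Pik3cd, the main catalytic subunit in T cells, had -0.19.

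**Figure D4:**
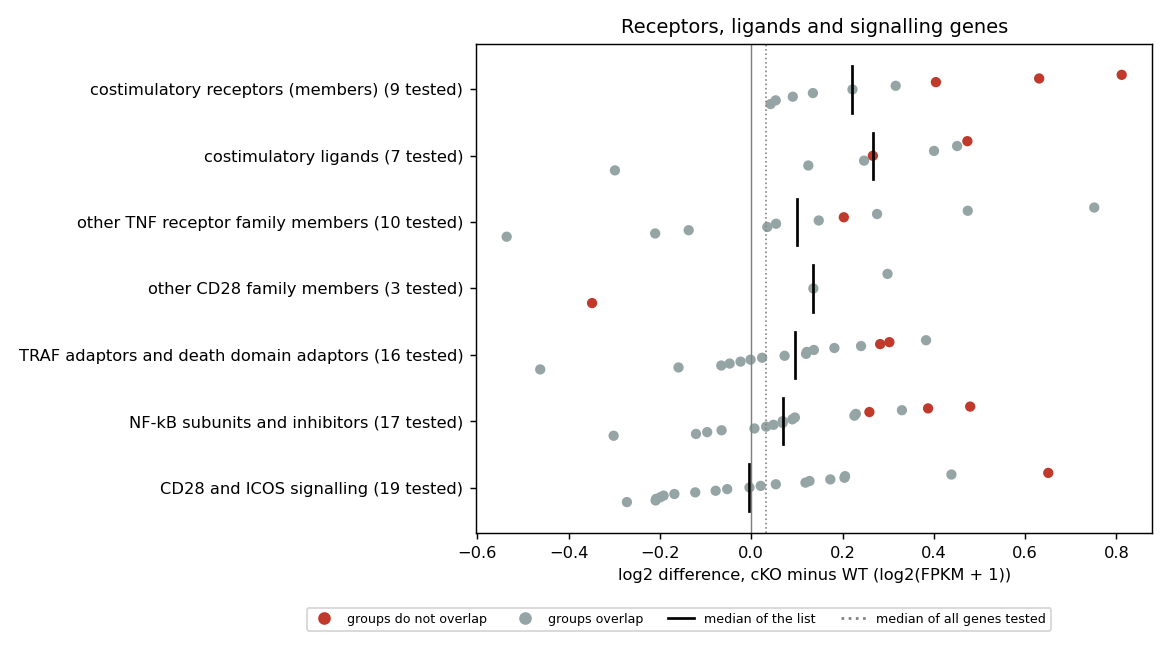
Log2 differences, cKO minus WT on the log2(FPKM + 1) scale, of the tested genes of each list, 1 point a gene. Red points have groups that do not overlap, black bars are list medians and the dotted line is the median of all genes tested. The receptors have a median of 0.22, the ligands 0.27, the NF-kB genes 0.07 and the CD28 and ICOS signalling genes -0.0040.

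Likeness was taken as the root mean square difference between centred log2(FPKM + 1) values over the 6 libraries, among 7528 named protein-coding genes whose mean reached 5 FPKM, without predicted genes, small RNAs and receptor segments. The nearest genes to Icos were Gsn, which encodes the actin-severing protein gelsolin, Hmgb3 and Spata6, at 0.08, 0.11 and 0.15. Gsn stood at 37.9, 38.9 and 47.2 FPKM in the cKO libraries and at 27.1, 27.2 and 20.8 FPKM in the WT libraries, the same order of groups as Icos. Among the nearest to Tnfrsf9 were Iffo1 and Rab8a, at 0.05 and 0.06. The nearest to Tnfrsf1b were Pip4k2a, Slc10a7 and Fancg, at 0.08, 0.10 and 0.10. Of the other receptors, Tnfrsf9 was the nearest to Icos, at rank 48, and Tnfrsf18 the nearest to Tnfrsf1b, at rank 31. Cd28 was the nearest to Tnfrsf9, at rank 255, where Icos came only at rank 1179. With 6 libraries many genes come close to any pattern.

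Among the protein-coding genes beside the receptors on the chromosome, those tested that are not members all had overlapping groups. Park7 and Camta1, the neighbours of Tnfrsf9, had log2 differences of 0.09 and -0.096, and Vps13d beside Tnfrsf1b had -0.40. Pard3b beside Icos was at or below 0.400 FPKM. Plekhg5 beside Tnfrsf25 was at 1.55 to 2.78 FPKM, far under Tnfrsf25.

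Markers of other cells were present beside the receptor transcripts. The summed FPKM of 11 myeloid markers was 556, 1188 and 400.1 in the cKO libraries and 389.7 to 470.4 in WT, with S100a8 at 545, S100a9 at 245 and Cst3 at 293 FPKM in cKO 2. The macrophage gene Csf1r stood at 6.43, 3.23 and 6.49 FPKM in the cKO libraries, lowest in cKO 2, and at 4.26 to 6.82 FPKM in WT. Of 9 myeloid markers tested, 7 had a log2 difference above 0. Only Adgre1, another macrophage gene, was apart, against 6.96% of all genes apart and higher in cKO. It stood at 2.08 to 3.32 FPKM in cKO and 1.66 to 2.05 FPKM in WT. Cd14, under the minimum for testing, lay at 1.12 to 1.70 FPKM in cKO and 0 to 0.894 FPKM in WT. The sum of 9 B cell markers was 126 to 171 in cKO and 113 to 162 in WT, and that of 6 erythroid markers was 252 to 514 in cKO and 94.4 to 229.9 in WT, with no overlap. The sum of 5 plasma cell markers was 147 to 205 in cKO and 129.9 to 223 in WT, and that of 7 CD8 and NK markers was 27.6 to 30.5 against 27.5 to 32.6. Cd8b1 made up most of this last sum, which hides low NK genes. Klrd1 was apart and lower, with its highest cKO value 0.546 FPKM and its lowest WT value 1.35 FPKM. Its log2 difference was -1.28 (limma, adjusted p = 0.874). The untested Klrb1c reached at most 0.742 FPKM in a cKO library, under its lowest WT value of 0.866 FPKM. Cd8b1 and Gzma, also tested, overlapped. Genes above 0 in every library were 9 of 11 myeloid, 8 of 9 B cell, 5 of 6 erythroid, 3 of 5 plasma cell and 4 of 7 CD8 and NK markers, and Ly6g, a neutrophil marker, was listed at 0 in 4 of the 6 libraries. The T cell receptor complex genes summed to 7424 to 9486 FPKM in cKO and 6647 to 7796 FPKM in WT. The part of these differences in the receptor values was not tested. Without cKO 2, the library with the highest myeloid sum, the log2 difference of Icos was 0.82, of Tnfrsf9 0.43 and of Tnfrsf1b 0.85. In that setting 6 of 9 receptors were apart, with Cd28, Tnfrsf18 and Tnfrsf4 added, against 19.6% of all genes tested.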

How the data were processed

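Bulk RNA sequencing of 6 spleen Treg libraries, 3 labelled cKO and 3 labelled WT, was used. The authors deposited 1 table of FPKM for 36811 genes, made with cuffnorm going by its name. FastQC, cutadapt and HISAT2 and the builds NCBIM37 and mm9 are named in the submitters' processing notes. No source used here gives versions, annotation or strand setting. Symbols came from the reference tables and matched 31840 rows. Sequences and gene models are of the later build GRCm38 and were joined to the values by gene identifier, not by coordinates. Transcript lengths, exon overlaps and neighbours come from those models, which may differ from the annotation behind the values. Library columns map to samples by title.

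Genes whose mean reached 1 FPKM entered limma 3.58.1 (R 4.3.3) after conversion to log2(FPKM + 1). The fit used a trended variance without a block. Benjamini-Hochberg adjustment covered all genes tested. Differences of genes with low values are understated by that scale. Ratios were tested with exact permutations in scipy 1.17.1. The fit was tested on simulated data with 200 changed genes, drawn from the more abundant ones, in 5 simulations for each size of change. It recovered 28.6% of 2-fold and 83.9% of 4-fold changes, and 5.31% and 4.56% of its calls were false. A gene that did not pass may therefore still differ. The 18 alternatives changed the pseudocount (0.1 or 5), the filter (none or 5 FPKM), the scaling, the variance model or the replicate block, or left out 1 library. The depth scale came from transcripts of at least 2000 bases in single-transcript genes.

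Members and lists were chosen with earlier results of these data known. The rule for named genes took all members, list genes whose groups did not overlap (up to 6 a list), abundant markers, Bach2, and the 3 genes most like each member whose groups did not overlap, of which 1 is not reported here. Other list genes named, and neighbours, were chosen after their values were seen. In the CD28 and ICOS list, Pdpk1 replaced Pdk1, a mistaken entry, after values were seen.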

Additional observations from a re-analysis of the deposited data

How the results depend on the processing

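The count of receptors past the threshold was 0 in all 18 alternatives (limma). Icos, Tnfrsf18, Tnfrsf4, Tnfrsf9 and Tnfrsf1b had a log2 difference above 0 in each of them. The filters, the variance trends and the replicate block cannot change that difference, and the pseudocounts hardly did. Only the scalings, the library weights and the left-out libraries could have turned its sign. The receptors whose groups did not overlap numbered 3 (10.7% of all genes tested), 5 with equal FPKM sums (14.6%), and from 3 to 6 without 1 library, where 18.1% to 24.8% of all genes were apart. They numbered 2 after quantile normalization, which lost Tnfrsf1b (10.5% of all genes), and 2 with scaling to the T cell receptor complex, which lost Tnfrsf9 (13.4%). At an unadjusted p under 0.05 the 3 receptors (5.37% of all genes) became 1 after quantile normalization (5.16%), 1 with the replicate block (3.81%), 1 without cKO replicate 3 (4.27%) and 1 without WT replicate 3 (4.67%). They became 2 with scaling to the T cell receptor complex (6.34%), without cKO replicate 1 (6.86%) or without WT replicate 1 (4.04%), and 5 without cKO replicate 2 (4.75%) or with library quality weights (11.3%). Signs turned with no call on either side, and the cause was not tested. With scaling to the T cell receptor complex the log2 difference was -0.021 for Cd28, -0.099 for Tnfrsf1a, -0.12 for Cd27 and -0.066 for Tnfrsf25. For Cd27 it was -0.081 after quantile normalization, -0.030 with library quality weights and from -0.023 (without WT replicate 2) to 0.12 without 1 library, and for Tnfrsf25 it ran from -0.087 (without WT replicate 3) to 0.21 without 1 library. The ratios kept their directions under 8 alternatives. The count of 3 genes past the threshold over all genes was 1 when the replicate block was added, and leaving out 1 library gave 5 to 15. Libraries of equal number did not deviate together (correlations -0.060, -0.18 and -0.017), so no pairing was assumed. By the depth scale and the shortest coding transcript, Tnfrsf1a rests on the fewest fragments of the receptors, 31 to 51. That transcript has 390 bases and the longest 2156, so the true number may be higher.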
